A study of Mus musculus with 6 samples.

Results

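The genes described here are those of MHC class II antigen presentation. They were taken by symbol from the deposited tables, which listed all 10 of them among 24421 genes. They are the classical chains H2-Aa, H2-Ab1 and H2-Eb1, the peptide editor chains H2-DMa, H2-DMb1 and H2-DMb2, the DM inhibitor chains H2-Oa and H2-Ob, the invariant chain Cd74 and the transactivator Ciita. RNA-seq was performed on TurboRFP+ cells of the olfactory bulb, which were sorted from 3 control (WT) and 3 Sox9 KO mice, all adult males of over 8 weeks, with 1 library per mouse. All 6 mice had received AAV-GFAP-iCre-P2a-TurboRFP in the bulb, so Cre and the virus were present in both groups. The GFAP promoter of this virus is meant to drive the Cre recombinase and a red fluorescent protein in astrocytes. The KO mice were Sox9fl/fl, in which Cre deletes part of Sox9, and the WT mice were C57BL/6J without floxed alleles. The strain label of both is C57BL/6. The study lists the floxed line under a strain name of its own and not as C57BL/6J. Mouse line and Sox9 genotype therefore differ together between the groups and cannot be told apart. Cells were collected 4 weeks after injection. By design, the deletion should be limited to cells that took up the virus and in which the GFAP promoter is active. Which cells these were was not measured here.

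MHC class II molecules are pairs of an alpha and a beta chain that carry peptides from endosomes to the cell surface and show them to CD4+ T lymphocytes. The invariant chain fills the groove until endosomal proteases cut it away, DM then exchanges its last fragment for a peptide, and DO holds DM back. Transcription depends on CIITA, a coactivator that does not bind DNA itself and is recruited by the RFX, CREB and NF-Y factors on the X and Y boxes of these promoters. In the resting brain, class II is best known from border macrophages and dendritic cells, and it is low in microglia and astrocytes until signals such as interferon gamma induce Ciita.

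The promoters are shown first because CIITA acts on class II genes through them. Of the 10 genes, 7 had a promoter in the RefSeq table for GRCm38.p6, which gives 250 bases before to 50 bases after each start. H2-Ab1, Cd74 and Ciita were not in this table. The letters ATTGG, the core of the Y box, were searched on both strands, and GNAAC, the core of the X box, was searched 12 to 30 bases before ATTGG on the same strand. The 2 searches overlap, since the pair includes a Y box. ATTGG was in a promoter of all 7 genes, against 37.4% of all 32851 promoters of this length. The pair was in 5 of the 7, against 3.17% of all promoters, and in each of the 5 it lay on the strand of the gene. The counts are by gene and the shares by promoter, and the first of the 2 H2-DMa windows had no ATTGG. No pair was found in the windows of H2-DMa (with 2 starts) and H2-DMb2. These windows lie inside the GENCODE places of the genes given below, so the beginnings of those places were not searched. The stretches below run 5′ to 3′ on the strand of each gene, with the X core and then the Y core in capitals. H2-Eb2, a beta chain gene of the same region that is described below, is added because it has the pair as well.
H2-Aa: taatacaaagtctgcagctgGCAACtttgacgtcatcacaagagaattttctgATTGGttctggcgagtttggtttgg
H2-Eb1: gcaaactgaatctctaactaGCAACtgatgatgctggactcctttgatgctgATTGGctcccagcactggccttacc
H2-DMb1: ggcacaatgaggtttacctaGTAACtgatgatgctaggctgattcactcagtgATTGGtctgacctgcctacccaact
H2-Oa: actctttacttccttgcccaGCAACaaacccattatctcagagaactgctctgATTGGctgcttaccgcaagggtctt
H2-Ob: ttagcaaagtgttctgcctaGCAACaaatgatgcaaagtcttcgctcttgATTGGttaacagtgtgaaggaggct
H2-Eb2: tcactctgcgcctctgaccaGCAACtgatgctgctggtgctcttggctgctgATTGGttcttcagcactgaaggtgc
The stretch of H2-Aa is at chr17:34287847-34287924 on the minus strand. The others are on the plus strand, at chr17:34305756-34305832 for H2-Eb1, chr17:34153077-34153154 for H2-DMb1, chr17:34092283-34092360 for H2-Oa, chr17:34238798-34238872 for H2-Ob and chr17:34325523-34325599 for H2-Eb2. Distances are to the RefSeq starts, which can differ from the GENCODE places given below. The GENCODE place of H2-DMb1 begins before its stretch, and that of H2-Oa begins within its stretch. The Y core began 48 bases before the start of H2-Aa, 59 before H2-Eb1, 61 before H2-DMb1, 43 before H2-Oa and 57 before H2-Ob. Between the X and Y cores lay 28 bases in H2-Aa, H2-DMb1 and H2-Oa, 27 in H2-Eb1 and 25 in H2-Ob. In H2-Eb2 the Y core began 100 bases before the start and the spacing was 27 bases. A match to these letters is a description of the sequence and does not show that a factor was bound.

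All 10 genes were higher in Sox9 KO. The deposited values are normalized counts, which are reads on a gene divided by 1 size factor per library. Genes were compared with limma on log2(normalized count + 1) over 18413 genes and were called at a Benjamini-Hochberg adjusted p under 0.05 and a change of at least 1.5-fold. By this rule 10 of the 10 genes were called higher and none lower, and 22.2% of all genes tested were called higher. In each of the 10 genes every KO library was above every WT library, which was the case for 32.4% of all genes tested. Their median log2 fold change was 3.36, against -0.07 over all genes tested. The cells were measured in bulk, so more cells of a type that expresses class II and more class II RNA per cell cannot be told apart.

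**Figure D1:**
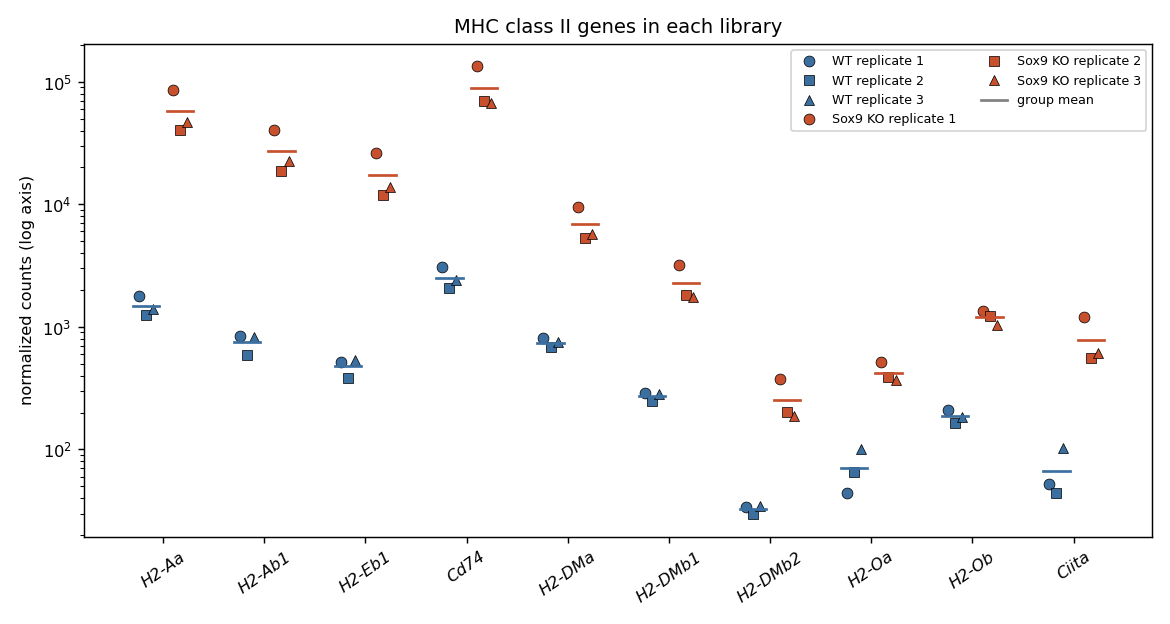
Normalized counts of the 10 class II genes in each library on a log axis. Blue symbols are the 3 WT libraries, orange symbols the 3 Sox9 KO libraries, the shape gives the replicate number and bars are group means. In each gene the groups are apart, and KO replicate 1 is the highest KO library.

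The libraries held between 18242129 and 86906527 reads on genes, so 1 read was worth between 0.395 and 1.58 normalized counts. Sox9, the deleted gene, had 5185, 6562 and 4921 normalized counts in WT replicates 1 to 3 and 52.6, 64.3 and 57.7 in KO replicates 1 to 3 (log2 fold change -6.54, SE 0.15, limma adjusted p = 2.5e-09). The labels call the samples astrocytes, yet markers of microglia were high in every library. The summed 12 astrocyte markers, Sox9 among them, went from between 517984 and 574527 normalized counts in WT to between 61245 and 71275 in KO, and all 12 were called lower. The summed 12 microglia markers went from between 170585 and 202505 in WT to between 585867 and 705941 in KO. They were thus above the astrocyte sum in every KO library and below it in every WT library. The sorted cells are therefore called TurboRFP+ cells below.

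The classical chains form the peptide groove. H2-Aa, the alpha chain of I-A (chr17:34282744-34287823, minus strand), had 1793, 1244 and 1389 normalized counts in the WT libraries and 85369.5, 40282 and 47312 in the KO libraries, in the order of replicates 1 to 3. Its mean was 39.1-fold higher in KO (log2 fold change 5.23, SE 0.24, limma adjusted p = 5e-08). The groups did not overlap, and KO replicate 1 stood well above the other KO libraries. H2-Ab1, the beta chain that pairs with H2-Aa (chr17:34257689-34269419), had 843, 591 and 828 in WT and 40310.1, 18665 and 22698 in KO, a 36.1-fold higher mean (log2 fold change 5.11, SE 0.25, limma adjusted p = 6.2e-08). H2-Eb1, the beta chain of I-E (chr17:34305867-34316674), had 513, 383 and 539 in WT and 26391, 11963 and 13867 in KO, a 36.4-fold higher mean (log2 fold change 5.11, SE 0.25, limma adjusted p = 7.5e-08). The 3 chains thus had fold changes of similar size and the same order of the KO libraries, with replicate 1 highest and replicate 2 lowest.

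The proportions of the chains overlapped between the groups. H2-Eb1 was 0.608, 0.647 and 0.651 of H2-Ab1 in WT and 0.655, 0.641 and 0.611 in KO, so the groups overlapped (exact permutation test over libraries, two-sided, p = 1). The ratio of H2-Aa to H2-Ab1 was 2.13, 2.10 and 1.68 in WT and 2.12, 2.16 and 2.08 in KO, which overlapped as well (exact p = 0.5). With 3 libraries against 3 this test cannot give a p below 0.1. In all, 17 ratios were computed, and after Benjamini-Hochberg adjustment over them the smallest p was 0.131.

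Other chain genes of the region were near the limit of detection. H2-Eb2, a second E beta gene, had 10.2, 0 and 4.73 normalized counts in WT and 23.8, 0.395 and 16.7 in KO, and it was not called (log2 fold change 1.08, SE 1.18, limma adjusted p = 0.45). H2-Ea-ps, the pseudogene that C57BL/6 mice carry in place of a working E alpha gene, was at 0 in every WT library and at 6.95, 1.97 and 0 in KO, and it was not called (limma adjusted p = 0.17). In KO, where H2-Eb1 was among the highest genes, this E alpha sequence thus had at most 7 reads. H2-Eb2, which has the pair of motif cores shown above, had 24, 1 and 11 reads in KO replicates 1 to 3. In the same libraries H2-Eb1 had 26584, 30304 and 9128 reads. H2-Ea, H2-Pa and H2-Pb were not matched by symbol.

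Cd74 encodes the invariant chain, which blocks the groove and guides class II to endosomes. It lies outside the class II region, on chromosome 18 (60803848 to 60812652). It had 3083, 2083 and 2396 normalized counts in WT and 133429, 69034 and 66676 in KO. A microRNA gene, Mir5107, lies in its exons. The mean was 35.6-fold higher in KO (log2 fold change 5.09, SE 0.24, limma adjusted p = 6e-08), and again KO replicate 1 was the highest. Its ratio to the summed classical chains was 0.979, 0.939 and 0.870 in WT and 0.877, 0.974 and 0.795 in KO, overlapping between the groups (log2 difference -0.08, exact permutation p = 0.6).

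Ciita encodes the class II transactivator (chr16:10480059-10528418). It had 52.6, 44.0 and 102 normalized counts in WT, from 36, 64 and 65 reads, and 1204, 552 and 609 in KO. The mean was 11.9-fold higher in KO (log2 fold change 3.56, SE 0.36, limma adjusted p = 1.1e-05). The KO libraries stood in the same order of 1 above 3 above 2 as the classical chains. The WT libraries spread as widely, with replicate 3 the highest, so that the log2 range was 1.2 in WT and 1.12 in KO. An exon of Ciita overlaps Dexi on the opposite strand.

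The DM chains exchange the invariant chain fragment for peptides. H2-DMa, the alpha chain (chr17:34119541-34139101), had 804, 679 and 750.3 normalized counts in WT and 9538, 5326 and 5701 in KO, a 9.21-fold higher mean (log2 fold change 3.15, SE 0.19, limma adjusted p = 2.7e-07). H2-DMb1, a beta chain (chr17:34153072-34160230), had 286, 247 and 282 in WT and 3222, 1823 and 1753 in KO, an 8.33-fold higher mean (log2 fold change 3.0, SE 0.21, limma adjusted p = 7.6e-07). H2-DMb2, the other beta chain (chr17:34143307-34151555), had 33.6, 29.6 and 34.7 in WT and 374, 204 and 187 in KO, a 7.81-fold higher mean (log2 fold change 2.86, SE 0.31, limma adjusted p = 1.7e-05). All 3 were separated between the groups and highest in KO replicate 1. H2-DMb1 and H2-DMb2 are near copies of each other. Of their 50-base exon windows, 22.7% in H2-DMb1 and 24.8% in H2-DMb2 also occur in another gene, most often the other of the pair, so reads may have been assigned to the wrong copy or dropped and their separate values are uncertain. H2-DMa has an exon that overlaps Brd2 on the opposite strand.

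Relative to the classical chains, DM was lower in KO. The summed DM chains were 0.357, 0.431 and 0.387 of the summed classical chains in WT and 0.0864, 0.104 and 0.0911 in KO. The ratio was 4.18-fold lower in KO (log2 difference -2.06), and the groups were well separated, with the smallest p this design allows (exact permutation p = 0.1). Both sums rose, the classical chains 37.8-fold and DM 8.94-fold.

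The DO chains form the inhibitor of DM, best known from B lymphocytes and some dendritic cells. H2-Oa, the alpha chain (chr17:34092340-34095234), had 43.8, 65.4 and 101 normalized counts in WT, from 30, 95 and 64 reads, and 512, 389 and 366 in KO. Its mean was 6.03-fold higher in KO (log2 fold change 2.64, SE 0.29, limma adjusted p = 2.3e-05). H2-Ob, the beta chain (chr17:34238903-34254414), had 210.4, 163 and 184 in WT and 1336, 1222 and 1027 in KO, a 6.43-fold higher mean (log2 fold change 2.68, SE 0.15, limma adjusted p = 1.9e-07). The DO genes had the lowest fold changes of the 10, and their KO libraries lay closer together than those of the other genes. H2-Oa has an exon that overlaps the antisense gene BC051537. The ratio of DO to DM was 0.226, 0.239 and 0.267 in WT and 0.141, 0.219 and 0.182 in KO (log2 difference -0.45, exact permutation p = 0.1). Its groups were apart by a narrow margin, and with the mean of the log2 values of the genes in place of their sum the difference was -0.35 with an exact permutation p of 0.3.

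The order of the levels was nearly the same in every library. Per kb of exon, the mean normalized count of Cd74 was 1501 in WT and 53432 in KO, and it was first in all 6 libraries. It was followed by H2-Aa (388 and 15180.3 per kb), H2-Ab1 (294 and 10601), H2-Eb1 (246 and 8954), H2-DMa (216 and 1988) and H2-DMb1 (162 and 1348) in each library. H2-Oa was next (49.8 and 300.3 per kb), then H2-Ob (34.6 and 222), except in WT replicate 1, where H2-Ob was the higher of this pair. H2-DMb2 (18.7 and 146 per kb) and Ciita (6.96 and 82.7 per kb) were the lowest. Between libraries, the ranges of these neighbours overlapped in both groups for H2-Aa with H2-Ab1 and H2-Ab1 with H2-Eb1, in WT for H2-Eb1 with H2-DMa and H2-Oa with H2-Ob, and in KO for H2-DMa with H2-DMb1, H2-Ob with H2-DMb2 and H2-DMb2 with Ciita. By normalized count among all genes listed, Cd74 stood at rank 2174 in WT and 25 in KO, and H2-Aa at 3719 and 41.

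The KO libraries differed among themselves in most of these genes. For each gene, the log2 range over the 3 KO libraries was computed, and its median over the 10 genes was 1.00, against 0.43 over all genes tested. The DO chains were the exception, with a range of 0.48 in H2-Oa and 0.38 in H2-Ob. Over the WT libraries the corresponding medians were 0.50 and 0.40. KO replicate 1 was the highest KO library in 10 of 10 genes, and in 6036 of the 18413 genes tested. Its excess over the geometric mean of KO replicates 2 and 3 had a median of 1.93-fold over the 10 genes, against 1.00-fold over all genes tested. The excess was 1.96-fold in H2-Aa and H2-Ab1, 2.05-fold in H2-Eb1, 1.97-fold in Cd74 and 2.07-fold in Ciita. In the DM chains it was 1.73-fold in H2-DMa, 1.80-fold in H2-DMb1 and 1.91-fold in H2-DMb2. It was smaller in the DO chains, at 1.36-fold in H2-Oa and 1.19-fold in H2-Ob. Some genes of other lists had an excess of this size. It was 4.99-fold in H2-Eb2 and 4.61-fold in H2-Ea-ps, both with few reads, 1.88-fold in the astrocyte marker Aldh1l1 and 1.78-fold in both the B lymphocyte marker Cd79b and the T lymphocyte marker Cd3e. The median over the 7 T lymphocyte markers tested, most with few reads, was also 1.78-fold. Of these 7 markers, 4 were highest in KO replicate 1 among the KO libraries. The excess of the class II genes remained under other scalings, at 1.84-fold with libraries scaled to the same total without Rn45s, a ribosomal RNA gene, and 1.69-fold with quantile normalization, with KO replicate 1 highest in all 10 genes under both.

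Leaving out KO replicate 1 did not change the calls. Without it, all 10 genes were still called higher, and their median log2 fold change was 3.05. H2-Aa then had a log2 fold change of 4.90 (limma adjusted p = 9.3e-09), Cd74 of 4.77 (limma adjusted p = 9.3e-09) and Ciita of 3.21 (limma adjusted p = 2.2e-05). Even the lowest KO library was far above the WT libraries in the classical chains, whose sum was between 2218 and 3149 normalized counts in WT and 152071, 70911 and 83877 in KO.

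**Figure D2:**
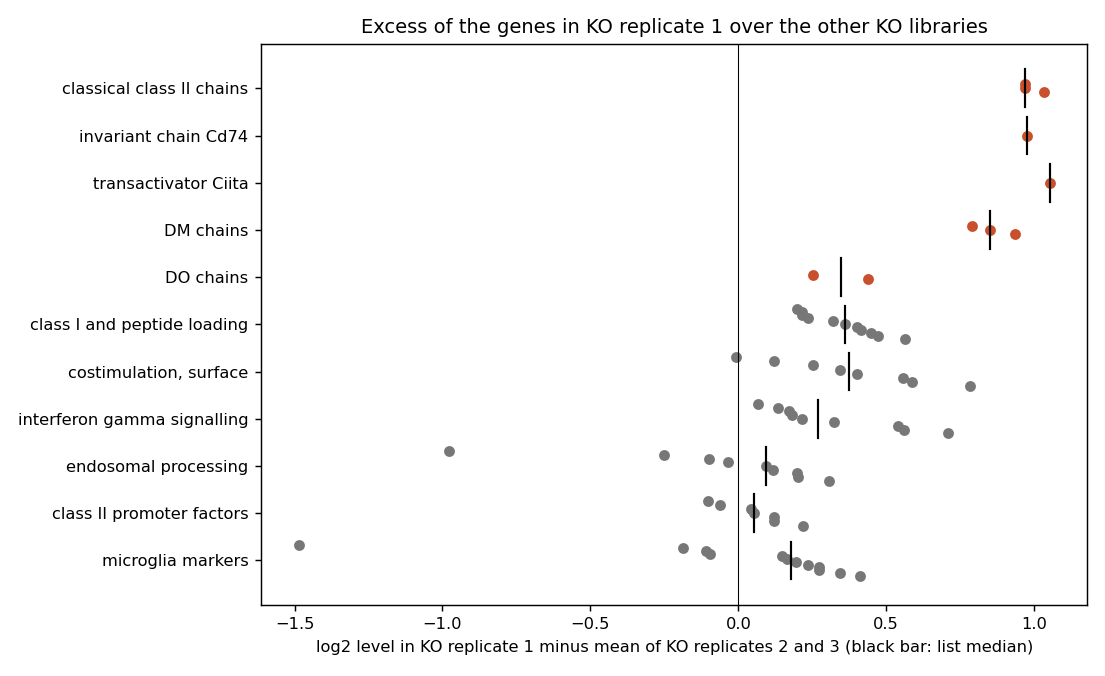
Log2(normalized count + 1) in KO replicate 1 minus the mean of the same in KO replicates 2 and 3, 1 point per gene, by gene group. Orange points are the class II genes, grey points other lists, the black bar the median of a list, and 0 means no excess; Ifng, at 2.94, is not drawn but is counted in the median of its list, and the low H2-Eb2 and H2-Ea-ps and the marker lists other than microglia are not drawn. Class II genes other than the DO chains lie between 0.79 and 1.05, and Cd40 is next to them at 0.78.

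The interferon gamma pathway to Ciita was followed in 10 genes, and 9 were called higher and none lower (median log2 fold change 1.51). KO replicate 1 was the highest KO library in all 10. Irf1, which interferon gamma induces and which acts on a Ciita promoter, had 821, 910 and 1066 in WT and 6509, 3946 and 4023 in KO (log2 fold change 2.34, SE 0.18, limma adjusted p = 1.7e-06). Its groups were apart, WT replicate 3 was the highest WT library as in Ciita, and its excess in KO replicate 1 was 1.63-fold. The receptor chain Ifngr1 (log2 fold change 2.02), the myeloid factor Irf8 (2.10) and the kinase Jak1 (0.80) were also called higher. Ifng, the cytokine itself, had 8.77, 4.13 and 23.6 normalized counts in WT and 57.6, 4.74 and 9.11 in KO, and it was not called (limma adjusted p = 0.65). Its highest value was in KO replicate 1, from 58 reads, and the other KO libraries lay within the WT range. With equal totals without Rn45s 7 of the 10 genes were called higher, and with quantile normalization 8.

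The factors that bind the class II promoters moved little by comparison. Of 7 genes, 3 were called higher and 1 lower, where 28.8% of all genes tested were called lower, and the median log2 fold change was 0.15. Those called higher were Nfya, a DNA-binding subunit of NF-Y (log2 fold change 1.44, limma adjusted p = 2e-07), Creb1 (1.00, limma adjusted p = 5.3e-06) and the RFX subunit Rfx5 (0.86, limma adjusted p = 0.00034). Rfxank, another RFX subunit, was the gene called lower (-0.89, limma adjusted p = 0.00098). Rfxap, the remaining RFX subunit, had a log2 fold change of -0.58 (limma adjusted p = 0.012), under the 1.5-fold threshold, and Nfyb (-0.15) and Nfyc (0.15) were not called. With equal totals without Rn45s 2 were called higher and 2 lower and the median was -0.18, while with quantile normalization 3 were called higher and none lower. The median excess in KO replicate 1 was 1.04-fold.

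Of 9 genes of the endosomal proteins that prepare class II for peptides, 9 were called higher, with a median log2 fold change of 1.53. Of these, 8 were called with equal totals without Rn45s and 8 with quantile normalization. Ctss, the protease that makes the last cut of the invariant chain, had 32545, 29816 and 34538 normalized counts in WT and 241464, 183996 and 207391 in KO (log2 fold change 2.70, SE 0.13, limma adjusted p = 7e-08). Ctsb (1.62), Ctsd (1.5) and Ctsl (1.51) were called higher as well. The median excess in KO replicate 1 was 1.07-fold over this list, below that of each of the 10 class II genes.

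The genes of costimulation and of class II at the surface were also all called higher, 8 of 8, with a median log2 fold change of 2.05. Cd83, which stabilizes class II at the surface, had a log2 fold change of 2.41 (SE 0.10, limma adjusted p = 2.5e-08), the costimulatory ligand Cd86 of 1.95 and the inhibitory ligand Cd274 of 1.95. The tetraspanin Cd9 changed by 1.23. Their median excess in KO replicate 1 was 1.295-fold. It was greatest in Cd40, a receptor for T cell help, at 1.72-fold.

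The genes of class I presentation had smaller fold changes than the classical class II chains. Of 11 genes of class I chains and peptide loading, 10 were called higher and none lower, with a median log2 fold change of 1.68. B2m, the light chain of class I, had 73008, 74015 and 90563 normalized counts in WT and 437812, 347594 and 409346 in KO (log2 fold change 2.33, SE 0.16, limma adjusted p = 5.4e-07). The heavy chains H2-K1 (2.43) and H2-D1 (2.65) and the loading protein Tapbp (1.58) were called higher too, and Tap2, at 0.46 (limma adjusted p = 0.022), missed the fold threshold. KO replicate 1 was the highest KO library in 11 of 11 genes, by a median of 1.28-fold. The ratio to class I used only H2-K1, H2-D1 and B2m, and B2m made up most of their sum. The classical class II chains were 0.0363, 0.0254 and 0.0252 of this sum in WT and 0.284, 0.165 and 0.172 in KO. This ratio was 7.02-fold higher in KO (exact permutation p = 0.1).

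Of the 10 class II genes, 8 lie within 224 kb of chromosome 17, and other genes in this region were compared with them. Of 5 neighbours, Brd2, Psmb8, Psmb9, Tap1 and Tap2, 4 were called higher, with a median log2 fold change of 1.23. Psmb8, Psmb9, Tap1 and Tap2 also belong to the class I list. Brd2, a chromatin reader next to H2-DMa, had a log2 fold change of 0.95 (SE 0.09, limma adjusted p = 6e-06), and Psmb9, an interferon-induced proteasome subunit, of 2.53 (limma adjusted p = 2.5e-06). Both lay below the lowest class II gene, H2-Oa at 2.64. Cd74 and Ciita, which lie on other chromosomes, had larger fold changes than these neighbours.

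**Figure D3:**
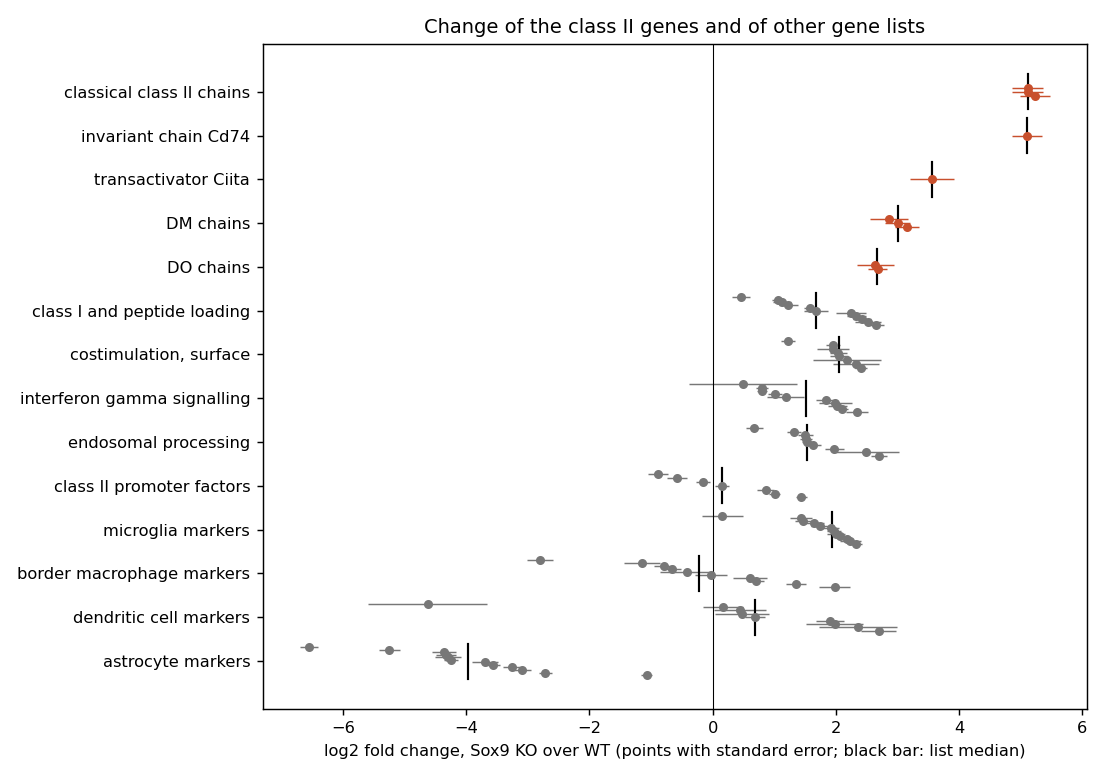
Log2 fold change of Sox9 KO over WT for each gene tested, with its standard error, by gene group. Orange points are the class II genes, grey points the other lists and marker lists, and black bars list medians. The classical chains and Cd74 lie above 5, the other class II genes between 2.64 and 3.56, and the median of the microglia markers is 1.94.

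Cells that can carry class II were followed by marker lists. Of the 12 microglia markers, 11 were called higher, with log2 fold changes from 0.16 to 2.33, and their sum was 3.61-fold higher in KO. Csf1r (log2 fold change 1.995), C1qb (2.17) and P2ry12 (1.43) were among the most abundant. The exception was Fcrls, with 16300, 16949 and 14482 normalized counts in WT and 8915, 21453 and 29098 in KO (log2 fold change 0.16, limma adjusted p = 0.70). Fcrls was lowest in KO replicate 1, the library in which the class II genes were highest. The median excess of the microglia markers in KO replicate 1 was 1.13-fold.

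The class II genes were higher in KO also relative to the microglia markers. The ratio of the summed classical chains to the summed microglia markers was 0.0156, 0.0127 and 0.0162 in WT and 0.221, 0.1004 and 0.143 in KO. It was 10.0-fold higher in KO (log2 difference 3.32), and the KO libraries spread more (SD of the log2 ratio 0.57) than the WT libraries (SD 0.19), but the groups were apart (exact permutation p = 0.1). Without KO replicate 1 the log2 difference was 3.03. The corresponding ratio was 9.47-fold higher for Cd74, 3.31-fold for Ciita, 2.39-fold for DM and 1.75-fold for DO. For class I, the summed H2-K1, H2-D1 and B2m were 1.42-fold higher relative to microglia markers. The groups of this ratio overlapped (0.428 to 0.640 in WT and 0.609 to 0.834 in KO, exact permutation p = 0.2).

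**Figure D4:**
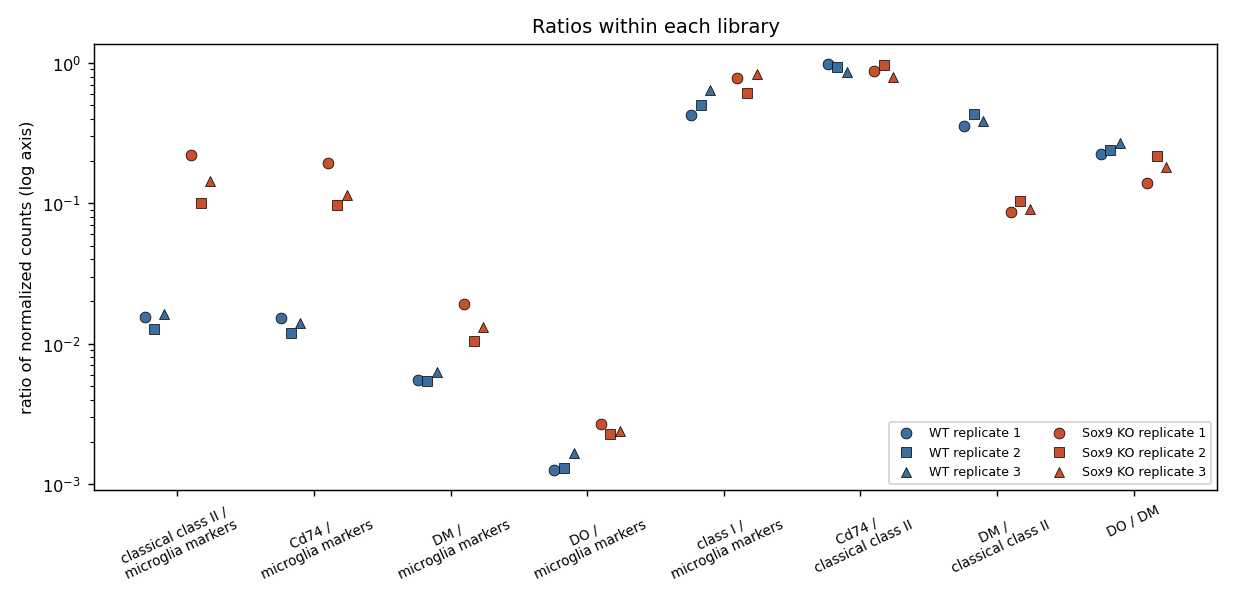
Ratios of summed normalized counts within each library, on a log axis, for WT (blue) and Sox9 KO (orange), with the shape giving the replicate number. Class I is the sum of H2-K1, H2-D1 and B2m. Of the ratios drawn, those of the classical class II chains and Cd74 to the microglia markers are separated most, class I overlaps between the groups, Cd74 relative to the classical chains overlaps, and DM relative to the classical chains is lower in KO.

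The markers of border macrophages, which carry class II in the resting brain, did not move in 1 direction. Of 10 markers, 3 were called higher and 4 lower (2 and 4 with equal totals without Rn45s), with a median log2 fold change of -0.22 (0.06 with quantile normalization). In the main comparison 22.2% of all genes tested were called higher and 28.8% lower. These shares also stand beside the counts of the marker lists below. Their sum was between 18867 and 28517 normalized counts in WT and between 31599 and 38290.2 in KO. Mrc1 (log2 fold change 0.70), Stab1 (1.35) and Ms4a7 (1.98) were called higher, and F13a1 (-0.79), Cd163 (-0.67), Pf4 (-1.15) and Lyve1 (-2.80) lower. Relative to this sum, the classical class II chains were 23.9-fold higher in KO (exact permutation p = 0.1).

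Dendritic cells carry class II at high levels. Of 9 markers, 5 were called higher and 1 lower (4 and 1 with equal totals without Rn45s, 8 and 1 with quantile normalization), and their sum went from between 1220.2 and 1699 normalized counts in WT to between 4603 and 5467 in KO. Most of the sum in KO was Itgax, with 345, 685 and 925 in WT and 3897, 3470 and 4383 in KO (log2 fold change 2.69, limma adjusted p = 1.6e-05), an integrin that activated microglia express as well. Irf4 (0.68), Batf3 (1.90), Xcr1 and Clec9a were the others called higher. Cd209a was the marker called lower, with 302, 213 and 241 in WT and 8.93, 0.790 and 57.7 in KO (log2 fold change -4.63, limma adjusted p = 0.0019). The defining genes Flt3 and Zbtb46 and the migration receptor Ccr7 were not called, and none was above 70.1 normalized counts in any library. The median excess of the dendritic markers in KO replicate 1 was 0.999-fold.

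B lymphocyte markers were near 0 apart from Cd79b. Of 8 markers, 7 were listed and 5 tested, and Cd79b alone was called higher, with 132, 95.0 and 86.7 normalized counts in WT and 535, 303 and 296 in KO. Cd79a had 20.5, 26.2 and 41.0 in WT and 7.94, 6.32 and 24.3 in KO. Ms4a1, Blk and Fcmr were no higher than 10.6 in any library, and Pax5 was at 0 in all but KO replicate 3, where it had 1 read. Of 4 plasma cell markers listed, Jchain (log2 fold change 7.88) and Tnfrsf17 (2.62) were called higher and Sdc1 (-4.49) lower. Of 6 monocyte markers, Plac8 was called higher and Vcan lower (log2 fold change -2.42), with Plac8 not called with equal totals without Rn45s. Of 7 T lymphocyte markers, only Cd4 was called (log2 fold change 1.62), and Cd3e was between 5.85 and 19.9 in all libraries.

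The remaining lists fell in part or whole. Of 6 endothelial markers, 1 was called higher and 3 lower (0 and 4 with equal totals without Rn45s), of 7 neuronal markers 6 lower, of 6 oligodendrocyte markers 6 lower and of 5 olfactory ensheathing cell markers 5 lower. Among the cells that can carry class II, 11 of 12 microglia markers were called higher. So were 5 of 9 dendritic cell markers, with 1 lower, and 3 of 10 border macrophage markers, with 4 lower. The part of these cells in the result was not tested.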

How the data were processed

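RNA was sequenced from 3 WT and 3 Sox9 KO mice, 1 library each (total RNA, NuGEN Trio kit, after papain dissociation and FACS for TurboRFP). Per the labels and methods, the authors mapped reads to mm10 with STAR 2.5.0a, counted them per gene and normalized them with DESeq2 1.20.0. Neither the annotation nor whether counting used strand is given in the sources used here. Signal values, 1 per gene and library, were deposited under the name RPM. Each library's values proved to be read counts scaled by a single factor, since 100% of them came out whole, to within 0.01 read, once divided by the smallest step. The test planned for RPM was kept, with 1 as pseudocount and genes under a mean of 1 left out.

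Groups were compared with limma 3.58.1 in R 4.3.3 (variance trend, two-sided, Benjamini-Hochberg over 18413 genes). The recovered counts were tested with edgeR 4.0.16 and DESeq2 1.42.0 as alternatives, besides other pseudocounts, filters, scalings, a replicate block and leaving out each library. Ratios used exact permutation tests over libraries. Places and exon lengths are from GENCODE vM21, of the same build. No column was left unused and no pair of libraries was identical.

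The members and lists were chosen with earlier results of these data known. The text names all members, Sox9, the other class II chains, at most 4 genes of highest mean per list, marker genes at 0 in a group, and the 5 genes most alike. Irf1, Ifng, Rfxank, Rfxap, Nfyc, Cd40, Tap2, Psmb8, Psmb9, Tap1, Fcrls, Lyve1, Cd163, Pf4, Xcr1, Clec9a, Flt3, Zbtb46, Ccr7, Blk, Plac8 and some others fall outside it and were picked with their values in view. A few genes of the lists are not reported here by name.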

Additional observations from a re-analysis of the deposited data

How the results depend on the processing

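All 10 class II genes stayed higher and called in every alternative run. Among the 229 alternative values, no log2 fold change and no difference of a ratio changed direction. The groups of the ratio of DO to DM were apart in the sums (exact p = 0.1) but gave an exact p of 0.3 with the mean of the log2 values. The median log2 fold change of the 10 genes ranged from 3.03 with equal totals without Rn45s, a ribosomal RNA gene that held 14.2% to 22.4% of the normalized counts, to 3.70 with quantile normalization, and from 3.05 (without KO replicate 1) to 3.54 when each library was left out. Those scalings moved the median of all genes by -0.31 and 0.27, and changed the split of all calls from 4090 higher and 5299 lower to 2630 and 6597, and to 5369 and 4100. Counts of called genes over all features were 4340 higher with edgeR and 3994 with DESeq2. The highest adjusted p of any gene was 0.0015, for H2-Oa and Ciita. With the replicate number as a block, 10 genes were called. In this balanced design the block cannot change a fold change, so the median stayed at 3.36 by construction. Libraries with the same number did not deviate together (correlations of -0.05, -0.01 and -0.01), so no pairing by number was visible in the values. Such correlations cannot tell whether the samples were prepared in pairs. The ratio of class II to microglia markers had log2 differences from 3.03 to 3.60 with each library left out, from which exact p-values cannot pass 0.05 in a design this small. The median log2 range over the KO libraries was lowest with quantile normalization, at 0.82. Depth limited Ciita, H2-Oa and H2-DMb2 in WT, where the lowest had 22 reads.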

Other observations

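The tested genes outside the 10 whose profiles over the 6 libraries were most like the mean profile of the class II genes were found by the root mean square distance of their log2 values, each centred on the WT mean. They were Casp12 (distance 0.18), C130026I21Rik (0.19), Gbp8 (0.23), A530032D15Rik (0.24) and Pdyn (0.24). Gbp8 encodes an interferon-induced GTPase, and it had 81.8, 64.7 and 109 normalized counts in WT and 1982, 1183 and 1326 in KO (log2 fold change 4.12, limma adjusted p = 1.9e-07). Casp12, a caspase gene, had 51.1, 35.8 and 42.6 in WT and 828, 623 and 482 in KO. Pdyn, which encodes the precursor of dynorphin peptides, had 23.4, 16.5 and 29.9 in WT and 640.3, 296 and 225 in KO.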
